A study of Mus musculus with 6 samples.

Results

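The miR-181 family was examined in embryonic mouse cardiomyocytes (EMCMs), as all rows of the miRNA table named miR-181 with any letter, copy number or asterisk. This gave 9 of 689 rows: the main strands miR-181a, miR-181b, miR-181c and miR-181d, and the opposite strands miR-181a-1*, miR-181b-1*, miR-181b-2*, miR-181c* and miR-181d*, where the asterisk is the older mark for the strand of a hairpin that was thought to be the minor one. The EMCMs came from wild type E16.5 embryos, whose strain the labels give as Swiss Webster and the study's methods as CD1, and were grown on flexible plates coated with collagen. The labels name 3 static samples, kept without stretch for 24 hours, and 3 stretch samples, exposed to 16% cyclic stretch at 1 Hz for 24 hours. Small RNA was sequenced in each; the study's methods name more samples per group than the labels do, so the mean used below may cover more samples. For each miRNA, a single mean abundance over the samples was used, on a log2 scale relative to all miRNA reads, so the values below describe static and stretched EMCMs together. Since neither the level in each sample nor its depth was at hand, the values carry no replicate error. Hence no level was compared between stretch and static, and no difference between miRNAs was tested. Levels are also given as RPM, the reads expected in 1000000 miRNA reads, which is 2 to the power of the mean abundance multiplied by 1000000.

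A miRNA is cut from a hairpin transcript, and usually 1 strand of the resulting duplex is loaded into an Argonaute protein while the other is degraded. The loaded strand pairs with messenger RNAs chiefly through its seed, bases 2 to 8, and lowers their stability or translation, so miRNAs with the same seed have overlapping sets of targets. The miR-181 family is known for its high level in developing lymphoid cells, where miR-181a tunes the sensitivity of the T cell receptor, and for its roles in the nervous system and in vascular inflammation. In heart muscle, miR-181c has been described inside mitochondria, where it acts on a transcript of the mitochondrial genome.

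The mature sequences show what the members share and how little separates them. They were taken from RefSeq (GRCm38.p6), where all 9 rows were matched. The main strands, which are the 5p arms, are given 5′ to 3′ with the seed in capitals.
miR-181a: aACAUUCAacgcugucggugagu
miR-181b: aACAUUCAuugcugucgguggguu
miR-181c: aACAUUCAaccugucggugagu
miR-181d: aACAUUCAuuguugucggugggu
All 4 had the seed ACAUUCA, which no other of the 1679 mature mouse miRNAs in the RefSeq table used here had. With positions counted from 1 at the 5′ end, miR-181d differed from miR-181b by C12U and lacked its last base. miR-181b differed from miR-181a by A9U, C10U and A21G and was 1 base longer. miR-181c could be turned into miR-181a by the insertion of 1 base. The main strands therefore fall into 2 pairs by sequence, a with c and b with d.

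The opposite strands, the 3p arms, do not share a single seed. They are shown because each belongs to 1 hairpin, whereas miR-181a and miR-181b are each made from 2 hairpins with the same mature sequence.
miR-181a-1*: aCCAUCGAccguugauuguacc
miR-181c*: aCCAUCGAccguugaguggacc
miR-181b-1*: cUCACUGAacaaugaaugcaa
miR-181b-2*: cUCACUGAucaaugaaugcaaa
miR-181d*: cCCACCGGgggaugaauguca
miR-181a-1* and miR-181c* had the same seed and differed by U16G and U19G. The opposite strands of the b hairpins also had 1 seed in common and differed by A9U and by 1 base in length, while the seed of miR-181d* was found in no other miRNA of that table. RefSeq lists 1 further mature sequence, miR-181a-2-3p, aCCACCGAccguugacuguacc, for which no row carries a matching name. Tags of at least 18 nt were kept by the authors, and the longest run of bases shared by any pair of the 10 mature sequences was 15, between miR-181a-1* and miR-181c*. Among the 5p arms the shared runs were 8 to 12 bases long. A tag of 18 nt or more from within 1 of these sequences thus has no exact match in another. The number of mismatches allowed in the mapping is not given in the sources used here.

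The 6 hairpins lie in 3 clusters of 2. In GRCm38.p6, Mir181a-1 spans chr1:137966455-137966541 and Mir181b-1 spans chr1:137966639-137966718, both on the plus strand with 97 bases between them. Both overlap an exon of the long noncoding RNA A430106G13Rik and an intron of Gm4258 on the same strand in GENCODE M21, and lie opposite to an intron of Gm26936. Mir181a-2 spans chr2:38852735-38852810 and Mir181b-2 spans chr2:38853830-38853918, on the plus strand with 1019 bases between them, opposite to an intron of the nuclear receptor gene Nr6a1, and Mir181b-2 also lies opposite to an exon of Gm44144. Mir181c spans chr8:84178873-84178961 and Mir181d spans chr8:84178716-84178787, on the minus strand with 85 bases between them, in an intron of Nanos3 on the same strand. The genome build used by the authors is not given in the sources used here, and these positions serve as annotation only.

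miR-181a was by far the most abundant member. Its mean abundance was -6.52 on the log2 scale, or 10866 RPM, which placed it 16th of all 689 miRNAs. miR-181b had a mean abundance of -10.08 (922 RPM, rank 63), and miR-181c one of -10.52 (683 RPM, rank 70). miR-181d was the lowest main strand, at -11.85 (271 RPM, rank 105). All 4 main strands stood above the median of the 478 rows without an asterisk, which was -16.86 or 8.39 RPM. Since the mature sequences are 21 to 24 bases long, no correction for length was made. In RNA from whole cultures, more cells of a type and more miRNA per cell cannot be told apart.

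The order was therefore a, b, c and d, but the steps were unequal. miR-181a stood 11.8-fold above miR-181b, a difference of 3.56 on the log2 scale, and 5.79-fold above the other main strands added together. miR-181b and miR-181c lay close, with a ratio of 1.35 and a difference in mean abundance of 0.43 on the log2 scale, and whether they differ beyond the spread of the samples cannot be said. miR-181c was 2.52-fold above miR-181d. The members most alike in sequence were not the most alike in level: miR-181c, which is 1 insertion away from miR-181a, was at 6.29% of its level, and miR-181d, which has 1 substitution and 1 base less than miR-181b, was at 29.4% of its level.

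**Figure D1:**
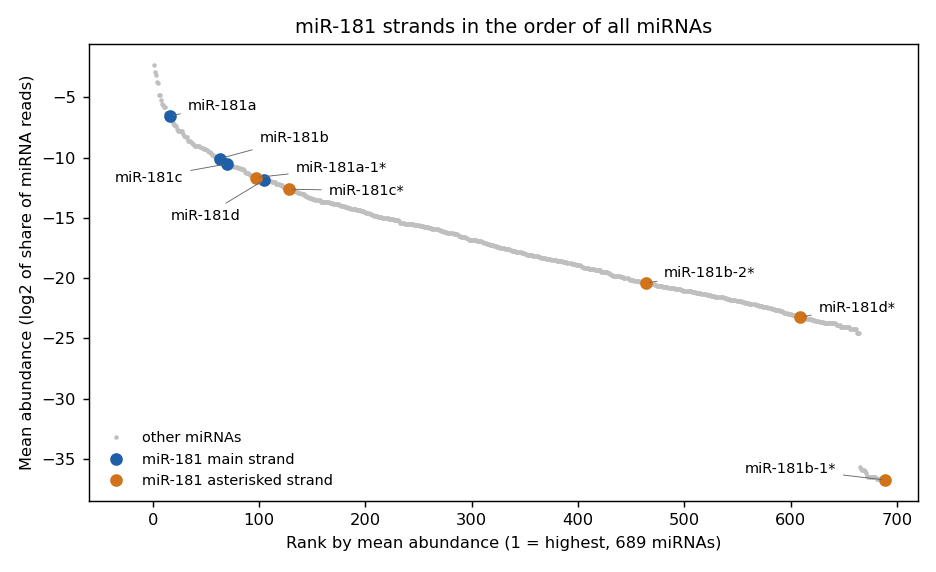
Mean abundance (log2 of the share of miRNA reads, vertical axis) of 689 miRNAs in rank order (horizontal axis), with the main strands of the miR-181 family in blue and the asterisked strands in orange; each point is the authors' mean over the samples. miR-181a is at rank 16, the other main strands are between ranks 63 and 105, and miR-181b-1* is in a separate set of 25 rows below -35.64.

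By cluster, the values could be separated only in part. miR-181a and miR-181b, whose mature sequences come from both chromosome 1 and chromosome 2, together reached 11788 RPM. miR-181c and miR-181d, from chromosome 8, together reached 954 RPM. The sum for a and b was 12.4-fold the sum for c and d. The shares of chromosome 1 and chromosome 2 in the first sum cannot be told apart from the mature sequences.

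Adding up the 9 rows, the family made up 1.32% of the miRNA reads, or 13213 RPM. Of this, miR-181a held 82.2%, miR-181b 6.98%, miR-181c 5.17% and miR-181d 2.05%. The asterisked strands together held 3.56% of the family. Nearly all of that came from miR-181a-1* and miR-181c*, at 2.35% and 1.20% of the family.

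The asterisked strands spanned a far wider range than the main strands. miR-181a-1* was at -11.65 (311 RPM) and was thus 8th among the 211 asterisked rows and 1.15-fold above the main strand miR-181d. miR-181c* was at -12.62 (159 RPM), the 13th among asterisked rows. By contrast, miR-181b-2* was at -20.39 (0.726 RPM, rank 118 of 211) and miR-181d* at -23.22 (0.102 RPM, rank 178 of 211). The median asterisked row was at -19.57, or 1.28 RPM, so a-1* and c* stood above it and b-2* and d* below it.

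miR-181b-1* was the lowest of all 689 rows, at -36.76. It belonged to a set of 25 rows between -36.76 and -35.64 that is separated from all other rows, the lowest of which was at -24.52. Read literally, the value would mean 1 read in 1.16e+11, so it is not treated as a level and no ratio is given for it. By contrast, miR-181a-1*, whose hairpin lies 97 bases from the hairpin of miR-181b-1*, was among the most abundant asterisked strands.

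The balance of the strands differed widely within the family. For miR-181c the main strand was 4.30-fold above miR-181c*, a difference of 2.10 on the log2 scale. For miR-181a the main strand, which is fed by 2 hairpins, was 35.0-fold above miR-181a-1*, a difference of 5.13. miR-181b was 1270-fold above miR-181b-2* (10.31 on the log2 scale), and miR-181d was 2659-fold above miR-181d* (11.38 on the log2 scale). Since miR-181a and miR-181b each add up 2 hairpins, and no level could be read for the opposite strands of Mir181a-2 and Mir181b-1, the balance of a single a or b hairpin was not measured.

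**Figure D2:**
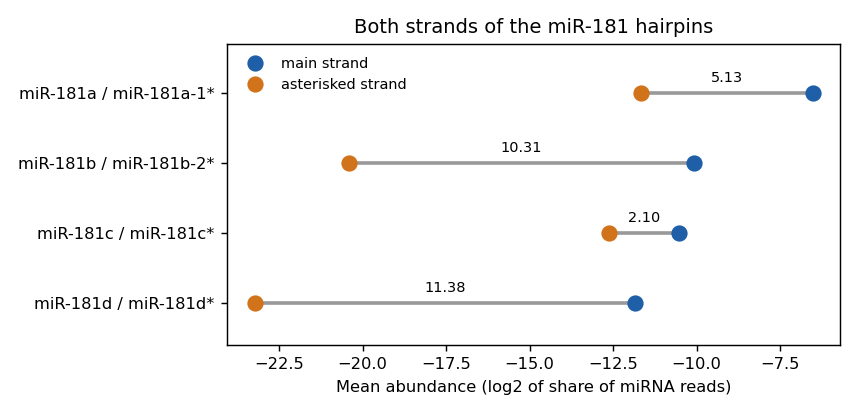
Mean abundance (log2 of the share of miRNA reads, horizontal axis) of the main strand in blue and the asterisked strand in orange for 4 strand pairs of the miR-181 family, with the difference on the log2 scale above each line. The difference is 2.10 for miR-181c and 11.38 for miR-181d; miR-181b-1* is not drawn because its value is not read as a level.

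Across the table, 205 pairs of a main strand and an asterisked strand of the same name could be formed. Hairpins with both strands named by arm were not among them, such as miR-151-5p at -8.33 and miR-151-3p at -7.37. Since the asterisk marks a strand thought to be the minor one, the set leans towards unequal strands by its naming. Of the 205 pairs, the main strand was the higher in 189, and the median difference was 5.75 on the log2 scale, with quartiles of 2.63 and 9.06. Without the pairs that hold a row of the separate set of 25 lowest rows, 192 pairs remained, with a median of 5.31 and quartiles of 2.35 and 8.46. The difference for miR-181c lay under the lower quartile, with 43 pairs smaller than it. That for miR-181a was near the middle, with 93 pairs smaller. Those for miR-181b with miR-181b-2* and for miR-181d lay above the upper quartile, with 162 and 171 pairs smaller. Among the 109 pairs with both rows at -20 or above on the log2 scale, the lower quartile was 1.93, which is below the difference for miR-181c, and the pairs with miR-181b-2* and miR-181d* are not in that set.

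**Figure D3:**
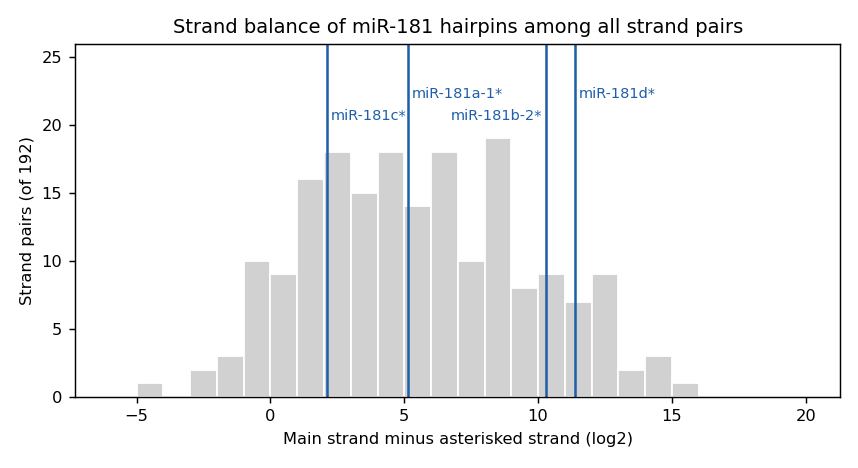
Number of strand pairs (vertical axis) by the difference of main and asterisked strand (log2, horizontal axis) for the 192 pairs without rows below the gap, with the 4 miR-181 pairs as blue lines. The lines stand at 2.10, 5.13, 10.31 and 11.38, on both sides of the median of 5.31 of these pairs.

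The hairpins of miR-181c and miR-181d lie in the same intron and gave main strands that differed by 1.33 on the log2 scale, while their asterisked strands differed by 10.61, or 1558-fold. To place this, other hairpins on 1 strand with mature miRNAs starting within 1000 bases of each other were examined, a comparison chosen after the values had been seen. In the other 52 such pairs, several of which share a hairpin, the median difference was 2.14 between main strands and 3.49 between asterisked strands. Some main rows add up 2 hairpins while each asterisked row belongs to 1, so the main and asterisked differences are not fully like measures. For Mir450-1 with Mir450-2 both main strands are the miR-450a row, which fixes their difference at 0. The asterisked strands differed more than those of miR-181c and miR-181d in 5 of the 52 pairs, and the main strands differed more in 37. In 3 of these 5 pairs, Mir181a-1 with Mir181b-1 among them, an asterisked row lay in the set below the gap, so the size of the difference is not known; without these 3 pairs, the asterisked strands differed more in 2 of 49. Of these 2 pairs, Mir23a with Mir24-2 differed by 0.11 between main strands and by 12.50 between asterisked strands. The miR-24 main row adds up 2 hairpins, so 0.11 is not the difference of these hairpins alone. For Mir19a with Mir92-1 the main strands were less alike, with differences of 3.21 and 10.76.

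The miRNAs next to each member in the order of mean abundance give a scale for these levels. miR-181a stood between miR-208b, a miRNA from an intron of a myosin heavy chain gene, at -6.41, and miR-541 at -6.81. miR-181b was next to miR-98 of the let-7 family at -10.07 and miR-300 at -10.20. miR-181c was next to miR-145, known from smooth muscle, at -10.49 and the endothelial miR-221 at -10.53. miR-181d was next to miR-214, known from fibroblasts, at -11.81 and miR-128, known from nerve cells, at -11.87. These neighbours differ from the members by 0.29 or less on the log2 scale and were chosen by level alone.

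As a group with a common seed, the miR-181 main strands held 1.27% of the miRNA reads and were 11th of 297 seed groups. The sequences behind this order covered 367 rows with 83.2% of the summed abundance. Groups made of unmatched rows are missing from it, so over all rows the seed group could stand further down. The groups next above were those led by miR-148a at 2.18%, miR-21 at 2.71% and miR-191 at 3.64%. Those next below were led by miR-208b at 1.25%, miR-16 at 0.890% and miR-541 at 0.890%. When all 689 rows were grouped by the number in their name instead, miR-181 was 13th of 322 groups. The seed group of miR-181 was thus close in total to the miR-208 group, which marks heart muscle.

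Beside other widely expressed families, miR-181 was intermediate. let-7 with miR-98 reached 52706 RPM over 21 rows, 3.99-fold the miR-181 total, and the miR-26 family reached 36461 over 5 rows, 2.76-fold the miR-181 total. The miR-15/16 family, which restrains the cell cycle, reached 9582 over 12 rows, and the miR-30 family 3811 over 11 rows. The miR-181 total was 1.38-fold that of miR-15/16 and 3.47-fold that of miR-30. The leading row held 82.2% of the miR-181 family, against 35.0% for let-7f in its family, 34.0% for miR-30b, 65.9% for miR-16 and 99.2% for miR-26a.

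Since the family is known from lymphoid cells, its levels were set beside miRNAs that mark the cell types such cultures could hold. The cardiomyocyte list (miR-1, miR-133, miR-208 and miR-499, 14 rows) summed to 15086 RPM, most of it miR-208b at 11734. On the log2 scale miR-208b was at -6.41, followed by miR-133a at -9.07, miR-208a-3p at -10.39, miR-1a at -11.31 and miR-499 at -12.19. The lowest row above the gap was miR-1b-5p at 0.0589 RPM, and 1 row, miR-1a-2*, was in the set below the gap. The lymphoid and myeloid list (miR-142, miR-150, miR-155 and miR-223) summed to 111 RPM over 7 rows, from 0.189 for miR-223* to 74.9 for miR-142-5p. The miR-181 total was 119-fold the sum of that list. This ratio depends on the choice of list. miR-146a, also known from such cells, was not in it and stood at -13.05 on the log2 scale, above miR-142-5p at -13.70. The part of blood cells in the miR-181 level was not tested.

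miRNAs known from other cell types were found as well, some of them at very low levels. The smooth muscle list summed to 134040 RPM, nearly all of it miR-143 at 133295. In the same list miR-145 was at 694 RPM, and the lowest row was miR-143* at 8.20 RPM. The fibroblast list summed to 6222 over 6 rows, from 105 for miR-199b* to 2524 for miR-199a-5p. In it, miR-199b and miR-199a-3p had the same mean abundance, -9.30, so the same reads may be counted 2 times. The endothelial miR-126 strands summed to 4771, with 4642 for miR-126-5p and 129 for miR-126-3p. Because of the equal rows, no order is read between the fibroblast and endothelial sums. The nerve cell list (miR-9 and miR-128, with no row for miR-124) summed to 292, most of it miR-128 at 267. Its lowest row above the gap was miR-9* at 0.266 RPM, and miR-128-2* was in the set below the gap. The red blood cell list, which held only miR-144 and miR-451, summed to 1.79 RPM, from 0.450 for miR-144 to 0.869 for miR-451. Other miRNAs linked to blood or muscle, such as miR-486 at -9.01 on the log2 scale, were in no list. The epithelial list summed to 36.9 RPM, from 0.339 for miR-200b* to 12.7 for miR-429. The EMCM cultures thus gave both heart muscle miRNAs and miRNAs known from fibroblasts, endothelium and smooth muscle. Which cells these came from was not tested, nor was the part of each cell type in the miR-181 level.

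**Figure D4:**
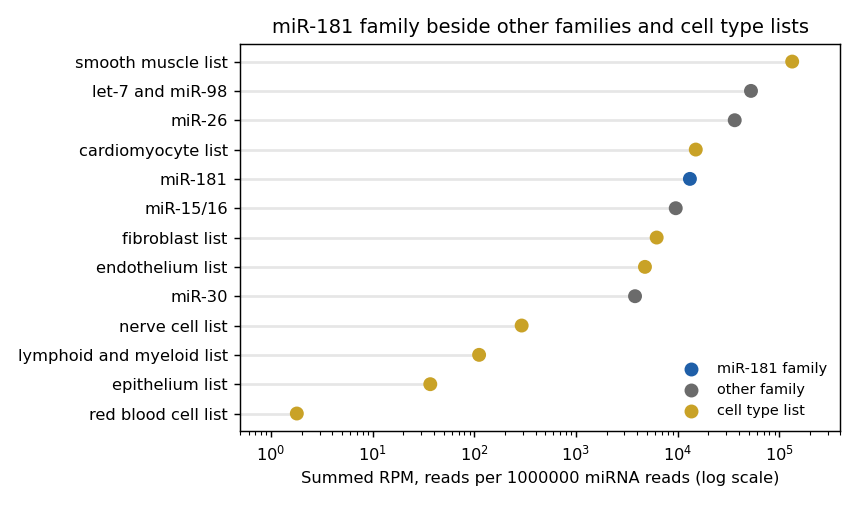
Summed mean abundance (RPM, reads per 1000000 miRNA reads, log scale, horizontal axis) of the miR-181 family in blue, other miRNA families in grey and cell type lists in yellow; each point is a sum of the authors' means. The miR-181 family, at 13213, lies just under the cardiomyocyte list at 15086 and far above the lymphoid and myeloid list at 111. Most of the cardiomyocyte sum is miR-208b, and the fibroblast sum includes 2 rows of equal value that may hold the same reads.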

How the data were processed

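Small RNA of EMCMs was sequenced; the labels give 3 static and 3 stretch samples, while the methods give 6 per group, and how many of them the deposited mean covers is not known. According to the study's methods, the authors removed low-quality reads, trimmed adaptors, kept tags of 18 to 30 nt, mapped them to the mouse genome with Bowtie2, added up hits per gene ID and obtained expression levels with edgeR; the submitters' processing notes name Bowtie2 and DESeq. The genome build, tool versions, normalization, any filter on low counts and the way the mean was formed are not given in the sources used here.

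Deposited was 1 log2 mean abundance from the authors for each of 689 miRNAs over all samples. Taken as log2, the values sum to a share of 0.995. The table's other 4 columns hold the authors' own comparison of stretch with static (log2 ratio, signed fold change, P value and FDR) and were not used, so no test was run. Without counts, depth and precision are unknown.

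Shares, ranks, strand differences and group sums were computed with Python 3.11.15, numpy 2.4.6 and pandas 2.3.3, and figures drawn with matplotlib 3.10.9; the steps were tested on simulated data. Rows were matched by name to RefSeq mature sequences, and for 67 names that give no strand the main strand was set by hand from general knowledge; 322 rows were left unmatched. All members, their neighbours in rank, the 3 seed groups on either side and the extremes of each cell type list were named. The members and lists were chosen with earlier results of these data known. Alternatives were the scale and base of the share, the rows counted as the family, identical rows counted once, a minimum of -20 on the log2 scale, summed asterisked strands, the seed length and asterisked rows left out; grouping by the number in the name, the pairs without rows below the gap and the neighbouring hairpins were added after the data were seen.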

Additional observations from a re-analysis of the deposited data

How the results depend on the processing

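The summed share of the family, 1.32%, was 1.27% without asterisked rows or with only the rows that hold the seed, and 1.33% when identical rows were counted once, when rows under -20 on the log2 scale were left out or when the shares were divided by their sum. Read with base e or base 10, the shares of all rows would sum to 0.302 or 0.00756 in place of 0.995. The median strand difference over all pairs, 5.75, was 4.27 with both rows at -20 or above and, in a setting added after the data were seen, 5.31 without the rows below the gap. The rank of the seed group stayed at 11 with bases 2 to 7 and without asterisked rows, and was 13 with groups by number. The seed settings all rest on the same matched rows, so they do not show the effect of the rows left unmatched. The ranks of the members stayed within 1.5 times in these settings. No paired analysis was possible because 1 mean over the samples was used for each miRNA; for the same reason no replicate could be left out. In the pairs at -20 or above, the difference for miR-181c was no longer under the lower quartile, which was 1.93 in place of 2.63, and the pairs with miR-181b-2* and miR-181d* dropped out because of these low rows. With the depth unknown, no precision can be given for the low rows miR-181b-2*, miR-181d* and miR-181b-1*.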
